A study of Homo sapiens with 18 samples.

Results

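Homologous recombination (HR) and the Fanconi anemia (FA) pathway were described through 35 genes of the deposited count table. The members were chosen by name, from a list of 37 genes, and every listed gene with a row was kept, out of 20705 genes in the table. MRE11 is listed there under its older symbol, MRE11A. RAD51D and GEN1 were not analysed here. The 35 genes fell into 8 roles: 5 of the BRCA complex, 4 filament mediators, 5 strand exchange partners, 8 of the FA core complex, 3 of the FA ubiquitin step, 5 of end resection, 4 of branch migration and nucleases, and POLQ of alternative end joining.

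HR repairs DNA breaks with the sister chromatid as template, so it acts in S and G2 phase. The MRE11-RAD50-NBN complex, RBBP8 (CtIP) and EXO1 resect the broken ends, BRCA1, BARD1, PALB2 and BRCA2 prepare the single-stranded DNA for strand exchange, and helicases and nucleases resolve the joined molecules. At a crosslink between the strands, the FA core complex and UBE2T attach ubiquitin to FANCD2 and FANCI, after which HR completes the repair. Many of these genes are transcribed mainly in cycling cells, through E2F factors that CDK4 and CDK6 release from the retinoblastoma protein.

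Poly-A RNA was measured in the human melanoma lines CHL1 (wild type for BRAF and NRAS, mutant for p53) and A375 (mutant for BRAF, wild type for p53). Cells received DMSO as the control, 1 µM palbociclib, an inhibitor of CDK4 and CDK6 (CDK4/6i), or 500 nM GSK3326595, an inhibitor of the arginine methyltransferase PRMT5 (PRMT5i). CHL1 had 4 groups, namely the control, CDK4/6i and PRMT5i after 72 hours and CDK4/6i after 6 days. A375 had 5 groups, the same 4 and a further control kept for 6 days. Each group had 2 libraries, 18 in all. All samples are labelled WT for genotype, CHL1 was grown in DMEM and A375 in RPMI-1640, and line and medium cannot be told apart. The library names differ in form. Those of A375 at 72 hours begin with the name of the line, and those of CHL1 and of A375 at 6 days with SA-SPLICE19. What the forms stand for is not said. Name form and line cannot be told apart at 72 hours, nor name form and time in A375. CHL1 at 6 days was set against the 72-hour control, the only one of that line, so time and treatment cannot be told apart there. The A375 PRMT5i libraries carry the letters CTX in their titles, and their treatment label gives PRMT5 inhibition.

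The libraries held 16213475 to 37424081 counts in genes. The summed level of the melanoma markers, 8 of 11 of which have a row, was 191 to 314 CPM (the count scaled to the TMM-adjusted library total) in CHL1 and 380 to 812 CPM in A375, while the blood, fibroblast, keratinocyte and endothelial marker lists each summed to at most 37.3 CPM. Of the 8 melanoma markers with a row, 6 averaged at least 1 CPM in CHL1 and 5 in A375. SOX10 and MLANA, which define the melanocyte lineage, have no row here. In 4 libraries GC-poor genes were high and GC-rich genes low: the mean log2 level of the GC-richest minus the GC-poorest genes, relative to the median library of the line, was -2.79 and -2.16 in CHL1 PRMT5i and -2.46 and -1.22 in the A375 control at 6 days, against -0.395 to 0.638 in the other 14. The members are GC-poor as a group (median 41.7%, range 33.1% to 63.8%, against 47.5% for all genes with a GC value and a mean of at least 1 CPM). The main counts of called members that rest on those 4 libraries are therefore given with and without a GC offset, as are some single genes. Other single-gene values that rest on them, many of them at 6 days in A375, and the counts of the comparison lists are without the offset. The exons of 11 members, among them FANCA, FANCI, MUS81, NBN and XRCC3, overlap another gene of the table, and BRCA1, FANCD2, RAD51AP1, RAD52 and RBBP8 have pseudogene copies. The methods give default settings for the counting and do not say whether the libraries kept strand, so the reads of these members are uncertain to that extent. The methods describe 2 replicates grown per condition and do not say whether they were set up independently, so p-values measure only the spread between these samples, which may be technical. In bulk RNA, fewer cells of a type and less RNA per cell cannot be told apart.

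In the controls the members were transcribed at modest levels. The median member lay at 12.2 CPM per kb of transcript in CHL1 and at 9.25 CPM per kb in A375 at 72 hours, with 19 and 15 of the 35 above 10 CPM per kb. On this per-length scale RBBP8 (45.9), RAD51B (44.8), FANCI (40.9) and EXO1 (34.4 CPM per kb) were the highest in the CHL1 control, and RAD51B (47.1) and FANCI (32.0 CPM per kb) led in A375. At the low end were EME1 (0.341 CPM per kb in CHL1), the partner of the MUS81 nuclease and the one member with a mean under 1 CPM, and DMC1, the recombinase otherwise known from meiosis, at 0.746 CPM per kb in CHL1. Between the controls of the lines 9 members were higher in CHL1 and 4 higher in A375 (29.3% and 29.6% of all genes). RAD51C was the furthest apart, at 11.7 and 12.8 CPM in CHL1 against 24.6 and 30.9 CPM in A375 (log2 difference -1.17 ± 0.18 SE, edgeR adjusted p = 1.93e-05), so that the groups did not overlap. Between the A375 controls 10 members were higher and 8 lower at 6 days than at 72 hours (24% and 23.8% of all genes), and with the GC offset 2 and 10 of 34 (17.5% and 25.9% of genes). The offset gave 7 higher and 13 lower between the controls of the lines (33.2% and 36.2% of genes).

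CDK4/6i lowered the larger part of the members in A375. At 72 hours 23 of 35 were down-regulated and 0 up-regulated, where 7.11% of all genes were down-regulated and 6.22% up-regulated, and the median log2 fold change was -1.21 over the members and 0.0018 over all genes. In 33 of the 35 both treated libraries lay below both controls, which held for 29.2% of all genes, and in 1 above (37.1%). With an offset that removes the trend of each library with GC content, 25 of 34 members were down-regulated and 0 up-regulated (16.2% and 13.4% of the genes in that fit). At 6 days 24 were down-regulated and 1, MUS81, up-regulated (21.3% and 21.8% of all genes), with a median of -0.97 over the members and 0.10 over all genes. In all, 28 had both treated libraries below both controls and 2 above (30.5% and 37.6% of all genes). The 6-day control is the group with the GC trend. With the GC offset 23 of 34 members were down-regulated at 6 days and 0 up-regulated (21.1% and 22.5% of genes), with a median of -0.55. Against the 72-hour control, which differs in time and name form, 22 of 35 were down-regulated. The share of all genes was not computed for that contrast. Some A375 calls did not hold in every fit that left out 1 library, which leaves 1 library in a group. At 72 hours the log2 change over those fits was -1.05 to -0.77 for FANCE and -0.81 to -0.64 for MRE11A. It was -0.98 to -0.69 for RAD51B and -1.11 to -0.92 for FANCB. At 6 days it was -0.72 to -0.28 for RAD50, -1.26 to -0.43 for FANCF and 0.47 to 1.16 for MUS81.

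In CHL1 at 72 hours 11 members were down-regulated and 0 up-regulated (2.72% and 2.27% of all genes), with a median of -0.38 over the members and 0 over all genes, and both treated libraries lay below both controls in 29 and above in 3 (27.9% and 30.1% of all genes). DESeq2 called 14 members at 72 hours, and the fit with the GC offset 17 of 34, all down-regulated (9% of genes were down-regulated and 8.31% up-regulated in that fit). At 6 days 17 were down-regulated and 1, FANCM, up-regulated (7.8% and 8.83% of all genes), with a median of -0.43 over the members and 0.03 over all genes, and both treated libraries lay below both controls in 24 and above in 2 (29.5% and 31.3% of all genes). At 6 days 21 of 34 were down-regulated and 1 up-regulated with the GC offset (17.6% and 16.2% of genes). The calls in CHL1 rest on having all 4 libraries. At 72 hours 1 member passed without CDK4/6i replicate 1 or without control replicate 2, and 0 passed without CDK4/6i replicate 2 or without control replicate 1, with a median of -0.48 to -0.40. At 6 days 14 passed without CDK4/6i replicate 1, 10 without CDK4/6i replicate 2, and 5 without either control. Over the 4 CDK4/6i comparisons, 8 members were down-regulated in all of them (BARD1, BRIP1, RAD51B, DMC1, FANCC, FANCI, BLM and POLQ), 10 in 3, 4 in 2, 5 in 1 and 8 in none. The same tally over all genes was not made. The CHL1 comparisons share their control libraries, so their calls are not independent.

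**Figure D1:**
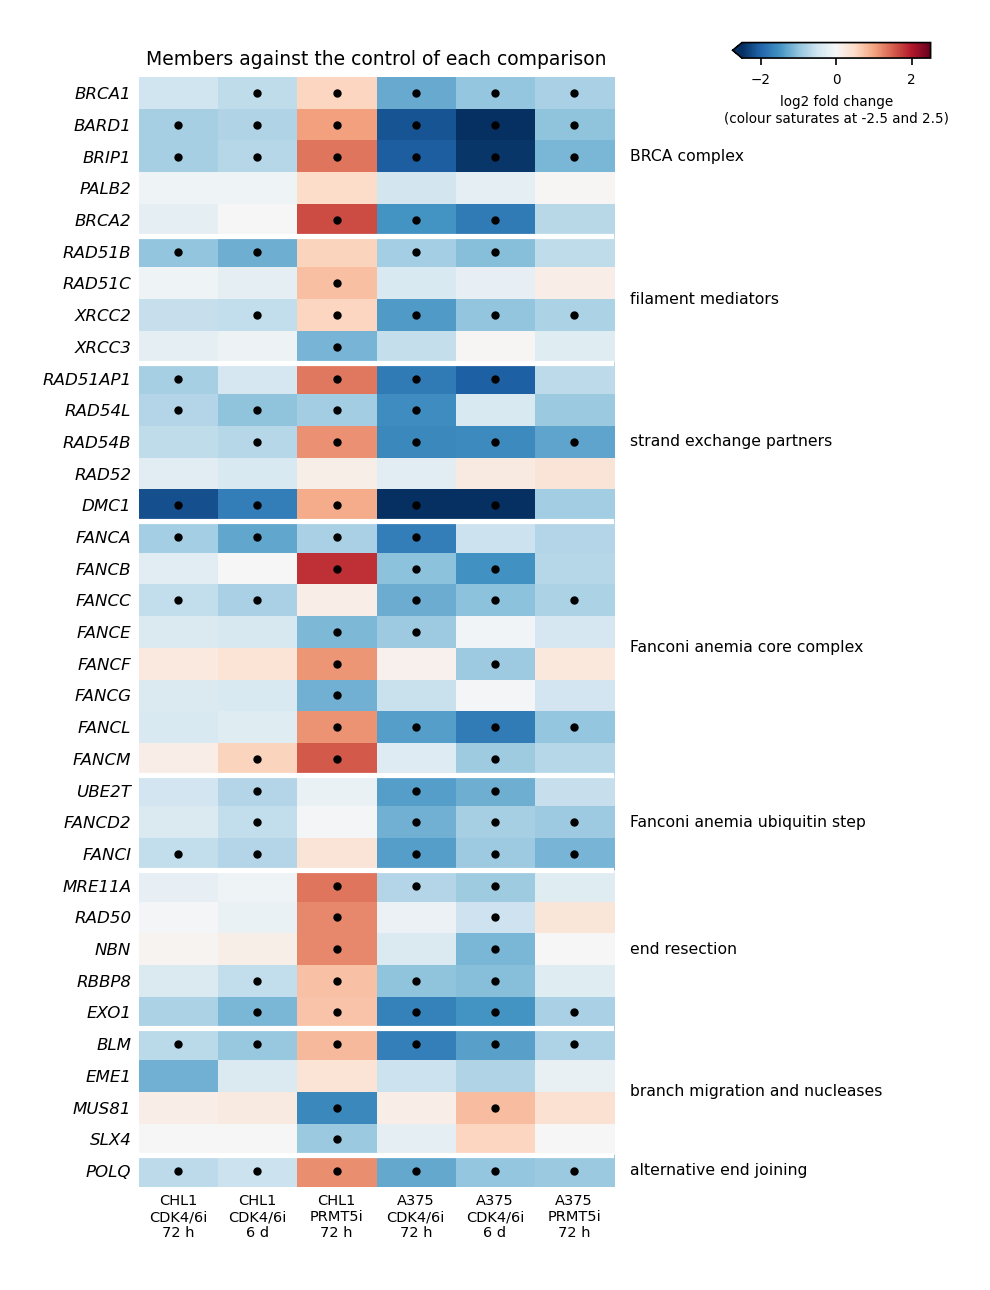
Log2 fold change of the 35 members (rows, grouped by role) against the control in each of the 6 comparisons (columns). Colour runs from blue (lower) to red (higher) and saturates at 2.5 in either direction, and a dot marks an edgeR adjusted p under 0.05. The A375 CDK4/6i columns are mostly blue with 23 and 24 down-regulated members, and the CHL1 PRMT5i column holds 20 up-regulated and 7 down-regulated members.

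With CDK4/6i the genes that encode S phase proteins moved with the members. Of 29 S phase and proliferation genes, 29 were down-regulated in A375 at 72 hours and 22 at 6 days (7.11% and 21.3% of all genes). In CHL1 14 were down-regulated at 72 hours and 20 at 6 days (2.72% and 7.8% of all genes), with 0 up-regulated in any of the 4 comparisons. CCNA2, the cyclin of S and G2 phase, fell by 1.92 and 2.22 on the log2 scale in A375 at 72 hours and 6 days and by 1.29 in CHL1 at 72 hours. With PRMT5i in CHL1, without the GC offset, 16 of the 29 were down-regulated and 4 up-regulated (27.6% and 26.4% of all genes). Of the members 7 were down-regulated and 20 up-regulated in that fit. With the offset 5 of 34 members were down-regulated and 9 up-regulated (18.3% and 18.3% of genes). Counts of the 29 with the offset are not given, so whether the 2 sets differed there was not tested. With PRMT5i in A375, 10 of the 29 were down-regulated and 0 up-regulated (1.74% and 0.874% of all genes). The part of the proliferation genes in the result for the members was not tested.

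The promoters of the members were searched for letters to which E2F factors are known to bind. RefSeq windows (GRCh38.p14, 250 bases before to 50 after a start site) were found for 32 of the 35 members. The forms TTTCCCGC, TTTGGCGC, TTTCGCGC and TTTGCCGC, on either strand, occurred in 6 of the 32 (18.8%) and in 3.99% of the 27305 genes with a window. XRCC2, FANCA, FANCD2 and EXO1 were among the 9 promoters of members down-regulated in 3 CDK4/6i comparisons, DMC1 and FANCC among the 7 of members down-regulated in 4, and the 16 promoters of members down-regulated in at most 2 held none. CCAAT boxes occurred in 40.6% of member promoters and 39.7% of all genes, and the letters TTTGAA of the cell cycle homology region in 12.5% and 18.2%. Stretches of the 4 promoters in which a match begins upstream of the start site are shown on the gene's own strand, 5′ to 3′, with the matched letters in capitals. The matches in XRCC2 and EXO1 begin past the start site and are not shown. In DMC1 the match is a palindrome that reads as TTTGGCGC on both strands and crosses the start site, and FANCC holds a match on each strand. A match is a description of letters and not a site of binding. The genes with a window include genes without a row in the count table. Neither the shares nor the split of the matches by number of comparisons was tested.
DMC1 promoter, chr22:38570178-38570229, minus strand: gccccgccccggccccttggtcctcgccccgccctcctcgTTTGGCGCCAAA
FANCA promoter, chr16:89816772-89816859, minus strand: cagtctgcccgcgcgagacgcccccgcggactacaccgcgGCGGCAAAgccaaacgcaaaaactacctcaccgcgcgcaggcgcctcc
FANCC promoter, chr9:95317710-95317921, minus strand: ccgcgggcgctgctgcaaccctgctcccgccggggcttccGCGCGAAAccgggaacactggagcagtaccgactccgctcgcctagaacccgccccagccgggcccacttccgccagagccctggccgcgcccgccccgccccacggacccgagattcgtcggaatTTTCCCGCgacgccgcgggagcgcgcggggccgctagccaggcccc
FANCD2 promoter, chr3:10026395-10026442, plus strand: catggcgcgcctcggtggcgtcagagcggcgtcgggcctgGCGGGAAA

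Among the genes of the BRCA complex, BARD1 and BRIP1 fell furthest with CDK4/6i. BARD1, the ring-finger partner of BRCA1 (chr2:215590370-215674407, GRCh37), was at 50.9 and 50.5 CPM in the A375 control at 72 hours and at 12.4 and 11.4 CPM with CDK4/6i. At 6 days BARD1 was at 78.4 and 52.9 CPM in the control and at 10.2 and 9.89 CPM with CDK4/6i. In CHL1, BARD1 was at 103 and 93.2 CPM in the control, 53.8 and 56.6 CPM with CDK4/6i at 72 hours, and 61.3 and 53.5 CPM at 6 days. Every treated library thus lay below every control of its comparison, and the treated A375 libraries were the lowest of the series. The fall was 4.44-fold in A375 at 72 hours (log2 -2.15 ± 0.20 SE, edgeR adjusted p = 2.01e-05), 6.53-fold at 6 days (-2.71 ± 0.20, adjusted p = 1.24e-06), 1.78-fold in CHL1 at 72 hours (-0.84 ± 0.15, adjusted p = 0.0127) and 1.7-fold at 6 days (-0.76 ± 0.15, adjusted p = 0.00697).

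BRIP1 (FANCJ), the helicase that binds BRCA1, ran alongside at log2 changes of -2.07 and -2.43 in A375 and -0.84 and -0.72 in CHL1, all 4 past the threshold. BRCA1 itself fell by 1.26 and 0.97 on the log2 scale in A375 and by 0.63 in CHL1 at 6 days, and its value in CHL1 at 72 hours was -0.49 ± 0.16 (edgeR adjusted p = 0.105). BRCA2, a tumour suppressor of breast and ovary, acts with PALB2. In A375 it was at 65.2 and 70.2 CPM in the 72-hour control against 24.9 and 24.8 CPM with CDK4/6i, and in CHL1 at 56.1 and 48.3 CPM in the control, 44.5 and 45.3 CPM at 72 hours and 53.3 and 51.3 CPM at 6 days. The A375 groups were far apart, while in CHL1 the 6-day libraries lay between the controls. BRCA2 was down-regulated 2.84-fold in A375 at 72 hours (edgeR adjusted p = 0.000115), and its log2 change in CHL1 was -0.22 ± 0.15 at 72 hours and 0.02 ± 0.15 at 6 days. PALB2, the bridge between BRCA1 and BRCA2, passed in none of the 4 comparisons (log2 -0.47 to -0.10).

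RAD51B, RAD51C, XRCC2 and XRCC3 are filament mediators, which assist the protein filament that forms on single-stranded DNA. RAD51B was the only one of them past the threshold in all 4 comparisons. It was at 96.1 and 137 CPM in the CHL1 control, at 50.7 and 67.1 CPM with CDK4/6i at 72 hours and at 38.4 and 60.9 CPM at 6 days, and in A375 at 135 and 109 CPM in the 72-hour control against 66.9 and 73.8 CPM. Control and treated libraries did not overlap in either line. RAD51B was also one of 3 members, with RAD52 and EME1, whose log2 change at 72 hours was not lower in A375 (-0.86) than in CHL1 (-0.98). XRCC2 fell by 1.41 and 0.98 in A375 and by 0.62 in CHL1 at 6 days on the log2 scale. RAD51C and XRCC3 passed in no CDK4/6i comparison, with log2 values from -0.59 to 0.02.

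Of the strand exchange partners, DMC1 (chr22:38914953-38966209, GRCh37) had the steepest drop of all members, from a low level. In A375 it was at 2.75 and 2.54 CPM in the 72-hour control against 0.106 and 0.20 CPM with CDK4/6i, and at 2.64 and 2.79 CPM in the 6-day control against 0.137 and 0.160 CPM. In CHL1 it was at 1.97 and 1.42 CPM in the control, at 0.448 and 0.288 CPM at 72 hours and at 0.572 and 0.429 CPM at 6 days. No treated library reached a control. The A375 values rest on 6 reads in the treated and 109 in the control libraries at 72 hours, or 5.83% of the control after scaling to library size (exact 95% interval 2.09% to 13.1%), and on 11 and 177 reads at 6 days (5.48%, 2.68% to 10.0%). In CHL1, 20 and 97 reads gave 21.6% of the control at 72 hours (12.6% to 35.2%), and 24 and 97 reads gave 30.0% at 6 days (18.3% to 47.2%). These intervals cover counting error only.

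RAD51AP1, which stimulates strand invasion, fell by 1.77 and 2.03 in A375 and by 0.82 in CHL1 at 72 hours on the log2 scale. The translocase RAD54B fell by 1.60 and 1.59 in A375 and by 0.72 in CHL1 at 6 days. Its relative RAD54L was down-regulated at both times in CHL1 (-0.73 and -1.0) and at 72 hours in A375 (-1.55 ± 0.26, edgeR adjusted p = 0.000972), and was at -0.39 ± 0.25 at 6 days in A375, or -0.80 (adjusted p = 0.00536) with the GC offset. RAD52, the annealing factor, passed in none of the 4 comparisons, with log2 values from -0.39 to 0.23.

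Of the 8 genes of the FA core complex, 5 were down-regulated in A375 at each time and 2 in CHL1 at 72 hours. FANCC was down-regulated in all 4 comparisons, at 79.9 and 66.3 CPM in the A375 72-hour control against 33.9 and 30.3 CPM, and at 77.3 and 81.9 CPM in the CHL1 control against 51.7 and 52.8 CPM at 72 hours and 41.4 and 48.5 CPM at 6 days. The treated libraries lay below the controls in each line. The log2 changes of FANCC were -1.25 and -1.03 in A375 and -0.61 and -0.81 in CHL1. FANCA was at 75.7 and 84.1 CPM in the CHL1 control, 42.7 and 45.7 CPM at 72 hours and 33.5 and 31.1 CPM at 6 days, and fell by 0.86 and 1.29 on the log2 scale. In A375 it fell by 1.72 at 72 hours and was at -0.54 ± 0.22 at 6 days (edgeR adjusted p = 0.0588), where the controls stood at 47.4 and 76.8 CPM and the treated libraries at 40.6 and 45.7 CPM. The value of FANCA at 6 days in A375 was -1.01 with the GC offset (adjusted p = 0.000327). FANCL, the ubiquitin ligase of the complex, fell by 1.38 and 1.75 in A375 and was at -0.38 and -0.30 in CHL1, where it did not pass. FANCL has the lowest GC content of the members (33.1%). In A375 its 6-day controls stood at 228 and 326 CPM and the 72-hour ones at 106 and 119 CPM. With CDK4/6i at 6 days it was at 75.8 and 88.3 CPM, and it stayed down-regulated there with the GC offset.

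FANCB fell by 1.02 and 1.52 in A375 on the log2 scale and was at -0.29 and -0.02 in CHL1. Its 6-day value turned to 0.05 against the 72-hour A375 control, and the 6-day controls stood at 140 and 83.0 CPM and the 72-hour ones at 34.4 and 38.3 CPM. FANCM, the translocase that recruits the complex to DNA, was the one member up-regulated in CHL1 with CDK4/6i: it was at 34.2 and 32.9 CPM in the control and at 54.2 and 43.5 CPM at 6 days, without overlap (0.56 ± 0.18, edgeR adjusted p = 0.0494), and did not pass when CDK4/6i replicate 1 or either control was left out. In A375 FANCM was at -0.88 ± 0.20 at 6 days (adjusted p = 0.00235), but at -0.07 (adjusted p = 0.656) with the GC offset and at 0.20 against the 72-hour control. FANCE passed at 72 hours in A375 (-0.90 ± 0.27, adjusted p = 0.0368), FANCF at 6 days in A375 (-0.91 ± 0.27, adjusted p = 0.0126), and FANCG in none of the 4. FANCE had an adjusted p of 0.13 to 0.277 in edgeR when 1 library was left out. FANCF was at -0.43 (adjusted p = 0.142) without control 6 days replicate 1 and at -1.26 (adjusted p = 0.000165) without replicate 2 of that group, and did not pass without CDK4/6i replicate 2.

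All 3 genes of the ubiquitin step were down-regulated in A375 at both times. UBE2T, the E2 enzyme, FANCD2 and FANCI, the pair that receives the ubiquitin, fell by 1.38, 1.21 and 1.38 on the log2 scale at 72 hours and by 1.21, 0.83 and 0.91 at 6 days. FANCI was at 175 and 183 CPM in the 72-hour control against 72.7 and 70 CPM with CDK4/6i, and at 190 and 158 CPM in the 6-day control against 92.9 and 91.6 CPM, so that the groups were well separated. In CHL1 all 3 passed at 6 days (-0.72, -0.61 and -0.73), and FANCI alone at 72 hours (-0.61 ± 0.16, edgeR adjusted p = 0.0474), at 233 and 223 CPM in the control against 145 and 154 CPM.

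In end resection, EXO1 and RBBP8 are described first and the MRE11-RAD50-NBN complex after them. EXO1 was at 82.0 and 92.8 CPM in the A375 72-hour control and at 26.5 and 29.7 CPM with CDK4/6i, and at 122 and 115 CPM in the CHL1 control, 64.0 and 74.3 CPM at 72 hours and 65.2 and 41.3 CPM at 6 days. Its groups did not overlap in either line. EXO1 fell by 1.69 and 1.49 in A375 and by 1.14 in CHL1 at 6 days on the log2 scale, and was at -0.78 ± 0.22 in CHL1 at 72 hours (edgeR adjusted p = 0.0633). RBBP8 fell by 1.01 and 1.06 in A375 and by 0.61 in CHL1 at 6 days. MRE11A, RAD50 and NBN were within -0.21 to 0.15 in CHL1 and passed at neither time. In A375 only MRE11A passed at 72 hours (-0.73 ± 0.21, adjusted p = 0.0346), with an adjusted p of 0.14 to 0.257 in edgeR when 1 library was left out. All 3 passed at 6 days (-0.88, -0.52 and -1.14), but with the GC offset they were at -0.12, -0.08 and -0.11 and did not pass, and RAD50 turned to 0.25 against the 72-hour control.

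BLM, the helicase that dissolves joined molecules, was down-regulated in all 4 comparisons (log2 -1.71 and -1.35 in A375, -0.68 and -0.95 in CHL1). It was at 47.2 and 53.9 CPM in the A375 72-hour control against 15.6 and 16.7 CPM, and at 73.2 and 72.0 CPM in the CHL1 control against 43.9 and 46.8 CPM at 72 hours. The nuclease MUS81 went the other way in A375 at 6 days, from 11.6 and 18 CPM to 26.8 and 24.2 CPM (0.78 ± 0.21, edgeR adjusted p = 0.00893). The 72-hour controls of A375 stood at 28.1 and 27.1 CPM. Against them MUS81 was at -0.16, and with the GC offset at 0.26 (adjusted p = 0.104). EME1 and the nuclease scaffold SLX4 passed in none of the 4 comparisons. POLQ, the polymerase of alternative end joining, fell by 1.27 and 0.98 in A375 and by 0.65 and 0.54 in CHL1 on the log2 scale, at 99.0 and 98.3 CPM in the A375 72-hour control against 44.4 and 40.5 CPM.

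**Figure D2:**
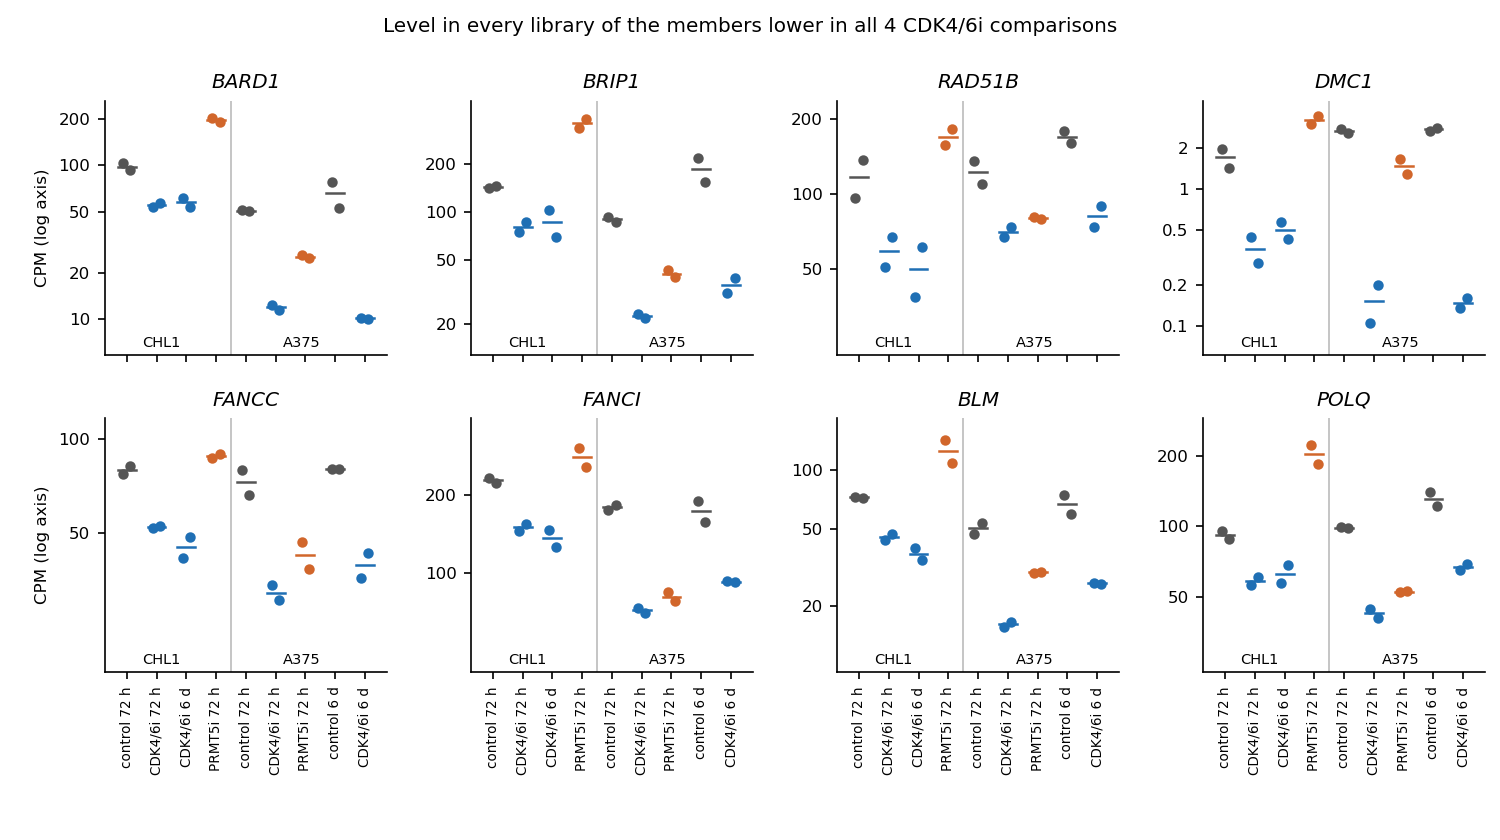
Level in CPM (log axis) of the 8 members down-regulated in all 4 CDK4/6i comparisons, with 1 point per library and a bar at the group mean. Grey marks controls, blue CDK4/6i and orange PRMT5i, CHL1 to the left of the line and A375 to the right. In each panel every CDK4/6i point lies below the controls it was compared with, and the CHL1 PRMT5i points lie above the A375 PRMT5i points.

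Whether the lines differed in their response to CDK4/6i at 72 hours was tested as a difference of the fold changes over all 18 libraries. The difference, CHL1 minus A375, was positive for 31 of the 35 members, but 2 differences passed, both positive. These were BARD1, 1.26 ± 0.25 SE (edgeR adjusted p = 0.0229), and BRCA2, 1.23 ± 0.25 (adjusted p = 0.0262). Of all genes 0.241% passed with a positive difference and 0.401% with a negative one. DESeq2 called 8 members and the fit with the GC offset 9, each with a positive difference (2.06% of genes positive and 1.73% negative with the offset). The edgeR calls did not hold when any 1 of the 8 libraries was left out. Between 72 hours and 6 days 0 members changed in CHL1 (0.0145% of all genes were higher at 6 days and 0% lower), with 2 at an unadjusted p under 0.05, 0 in DESeq2 and 0 with the GC offset (0.0155% and 0% of genes). In A375 the change at 6 days did not differ from that at 72 hours for any member in edgeR (0.174% of all genes had a higher and 0.908% a lower change at 6 days), with 6 members at an unadjusted p under 0.05, 2 in DESeq2 and 1, FANCI (0.72, adjusted p = 0.0344), with the GC offset (0.409% of genes higher and 1.22% lower). The edgeR count without the offset was 17 without control 6 days replicate 2 and 1 without replicate 1 of that group.

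PRMT5i in CHL1 gave a mixed picture that followed GC content. Of the 35 members 20 were up-regulated and 7 down-regulated (26.4% and 27.6% of all genes), the median log2 fold change was 0.71 over the members and 0 over all genes, and 24 had both treated libraries above both controls and 8 below (36.2% and 39.6% of all genes). The 20 up-regulated members had GC contents of 33.1% to 44.3%, and the 7 down-regulated ones 53.1% to 63.8%. With the GC offset 9 of 34 were up-regulated and 5 down-regulated (18.3% and 18.3% of the 12875 genes in that fit), the member median was 0.12, and 10 of the 27 calls stood in the same direction: BRCA2, FANCB, FANCF, FANCM, MRE11A, POLQ, RAD50 and RAD51C up, FANCG and MUS81 down. Leaving out either PRMT5i library gave 24 and 28 calls without the offset. The GC trend is in both PRMT5i libraries and in neither control, so trend and treatment cannot be told apart.

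**Figure D3:**
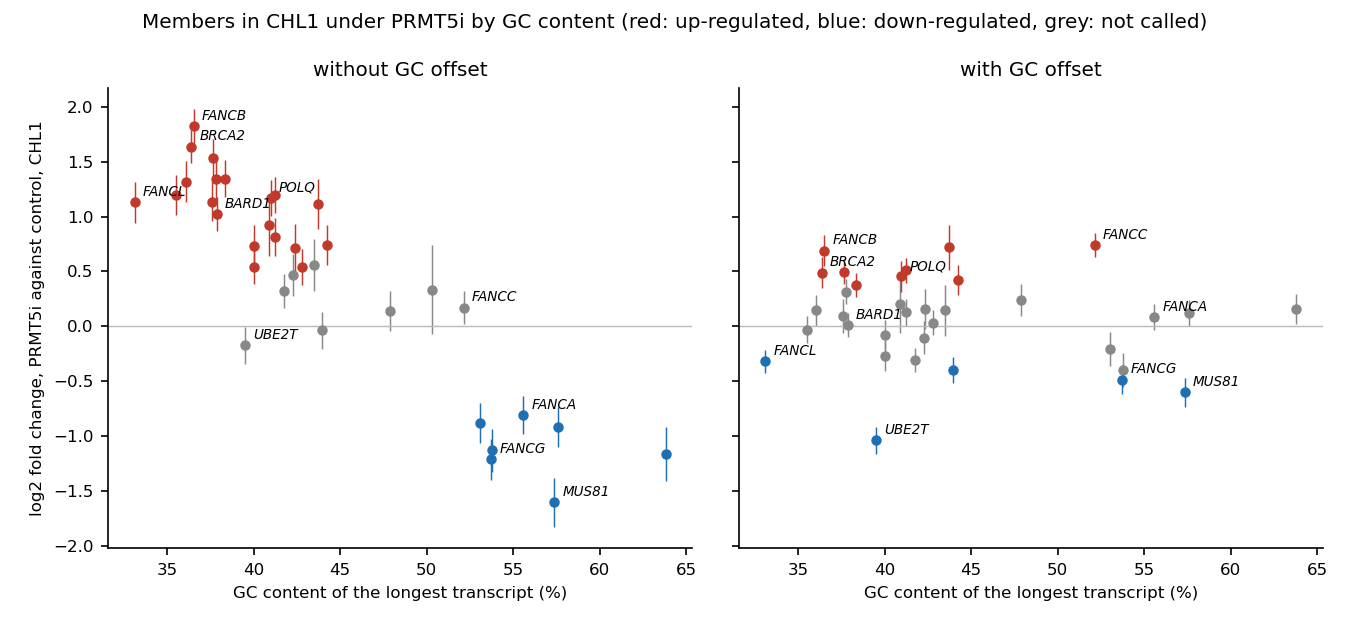
Log2 fold change (y axis, bars SE) of the members in CHL1 with PRMT5i against the GC content of the longest transcript in percent (x axis), without (left) and with (right) the GC offset. Red marks up-regulated, blue down-regulated and grey not called members. On the left all 20 up-regulated members lie at or below 44.3% GC and all 7 down-regulated ones at or above 53.1%, and on the right 9 are up-regulated and 5 down-regulated.

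Of the members called in both fits, FANCB and BRCA2 rose furthest without the offset. BRCA2 was at 56.1 and 48.3 CPM in the CHL1 control and at 167 and 154 CPM with PRMT5i (1.64 ± 0.15 SE, edgeR adjusted p = 8.22e-05; 0.49, adjusted p = 0.0235, with the offset). FANCB was at 35.7 and 31.6 CPM against 118 and 118 CPM (1.83 ± 0.15; 0.69, adjusted p = 0.0054, with the offset). In both genes the treated libraries lay far above the controls. FANCM was at 1.53 and 0.49 without and with the offset, FANCF at 1.11 and 0.72, and RAD51C at 0.74 and 0.42. In end resection RAD50 rose from 112 and 120 to 277 and 247 CPM (1.19; 0.51 with the offset) and MRE11A was at 1.34 and 0.37, while NBN, at 1.19 without the offset, was at -0.03 with it. POLQ rose from 95.2 and 88.0 to 223 and 184 CPM (1.17; 0.46 with the offset).

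MUS81 was the furthest down, from 21.6 and 20.7 CPM to 5.23 and 8.50 CPM (log2 -1.60 ± 0.23 SE, edgeR adjusted p = 0.000191; -0.60, adjusted p = 0.00717, with the offset), and FANCG followed at -1.21 and -0.48. The other 5 down-regulated members did not pass with the offset: FANCE (-1.13; -0.40 with it), RAD54L (-0.88; -0.21), XRCC3 (-1.16; 0.16), SLX4 (-0.92; 0.12) and FANCA (-0.81; 0.09), the last 3 with a change of sign. BARD1, which was at 203 and 191 CPM with PRMT5i against 103 and 93.2 CPM in the control (1.02 ± 0.15), was at 0.01 with the offset, BRCA1 at 0.54 and 0.03, and BRIP1 at 1.34 and 0.32 (adjusted p = 0.0569). The ubiquitin step held 0 calls without the offset. With it, UBE2T was at -1.04 (adjusted p = 0.000412) and FANCD2 at -0.40 (adjusted p = 0.0281), both down-regulated, and FANCC was up-regulated at 0.74 (adjusted p = 0.00106). UBE2T stood at 33.6 and 30.2 CPM in the control and at 28.8 and 27.0 CPM with PRMT5i, without overlap.

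In A375 with PRMT5i, 12 members were down-regulated and 0 up-regulated in edgeR (1.74% and 0.874% of all genes), 21 had an unadjusted p under 0.05, the median log2 fold change was -0.68 over the members and 0 over all genes, and 26 had both treated libraries below both controls and 4 above (26.2% and 26.9% of all genes). DESeq2 called 18, all down-regulated, and the fit with the GC offset 19 down-regulated and 1 up-regulated (6.55% and 4.15% of genes), the latter being RAD50 (0.38, adjusted p = 0.0403). A fit of the 72-hour A375 libraries alone gave 21 down-regulated and 1 up-regulated, and the share of all genes was not computed for that fit. The 12 calls rest on having all 4 libraries: 0 passed in edgeR without PRMT5i replicate 1, without PRMT5i replicate 2 or without control replicate 1, and 2 without control replicate 2, with medians of -0.71 to -0.64.

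By role, 3 of 5 members of the BRCA complex, 2 of 3 of the ubiquitin step, 2 of 8 of the core complex and 1 each of the filament mediators, strand exchange partners, end resection and branch migration were down-regulated, along with POLQ. FANCI was at 175 and 183 CPM in the control and at 83.8 and 77.3 CPM with PRMT5i (-1.16 ± 0.17 SE, edgeR adjusted p = 0.00305). BRIP1 went from 93.3 and 87.1 to 43.3 and 39.3 CPM (-1.14 ± 0.19, adjusted p = 0.00696), and RAD54B from 20.9 and 20.2 to 9.21 and 7.29 CPM (-1.33 ± 0.21, adjusted p = 0.0058). None of these groups overlapped. BARD1 (-1.01), FANCL (-0.96), POLQ (-0.92), FANCD2 (-0.90), BRCA1 (-0.81), EXO1, XRCC2 and FANCC (each -0.80) and BLM (-0.77) made up the rest. BRCA2 was at 44.1 and 40.9 CPM against 65.2 and 70.2 CPM, without overlap, and just missed the threshold (-0.68 ± 0.19, adjusted p = 0.0679). PALB2, RAD51C, NBN and SLX4 lay within 0.00 to 0.17 on the log2 scale, and MUS81 was at 0.38 ± 0.21 (adjusted p = 0.411).

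For PRMT5i, too, the difference of the fold changes between the lines was tested over all 18 libraries. CHL1 minus A375 was positive and past the threshold for 22 members and negative for 2, MUS81 (-2.02 ± 0.31) and SLX4 (-0.95 ± 0.33), against 18.8% and 22.1% of all genes. FANCB (2.5 ± 0.28), BRIP1 (2.45 ± 0.28), RAD54B (2.43 ± 0.27) and BRCA2 (2.29 ± 0.25) had the largest differences. With the GC offset 17 were positive and 1, MUS81, negative (13.4% and 12.6% of genes); FANCB was then at 1.28, BRIP1 at 1.36, RAD54B at 1.32 and BRCA2 at 1.06, all 4 past the threshold, while SLX4 turned to 0.16. Without the offset 9 members were up-regulated in CHL1 and down-regulated in A375 (BRCA1, BARD1, BRIP1, XRCC2, RAD54B, FANCL, EXO1, BLM and POLQ). With it these were 5 (BRCA2, FANCB, FANCC, FANCM and POLQ), and FANCD2 and FANCL were down-regulated in both lines. Of all genes 26.4% were up-regulated in CHL1 and 1.74% down-regulated in A375 without the offset. With it 18.3% were up-regulated and 18.3% down-regulated in CHL1, and 6.55% down-regulated in A375. The share of all genes called in both lines was not computed.

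**Figure D4:**
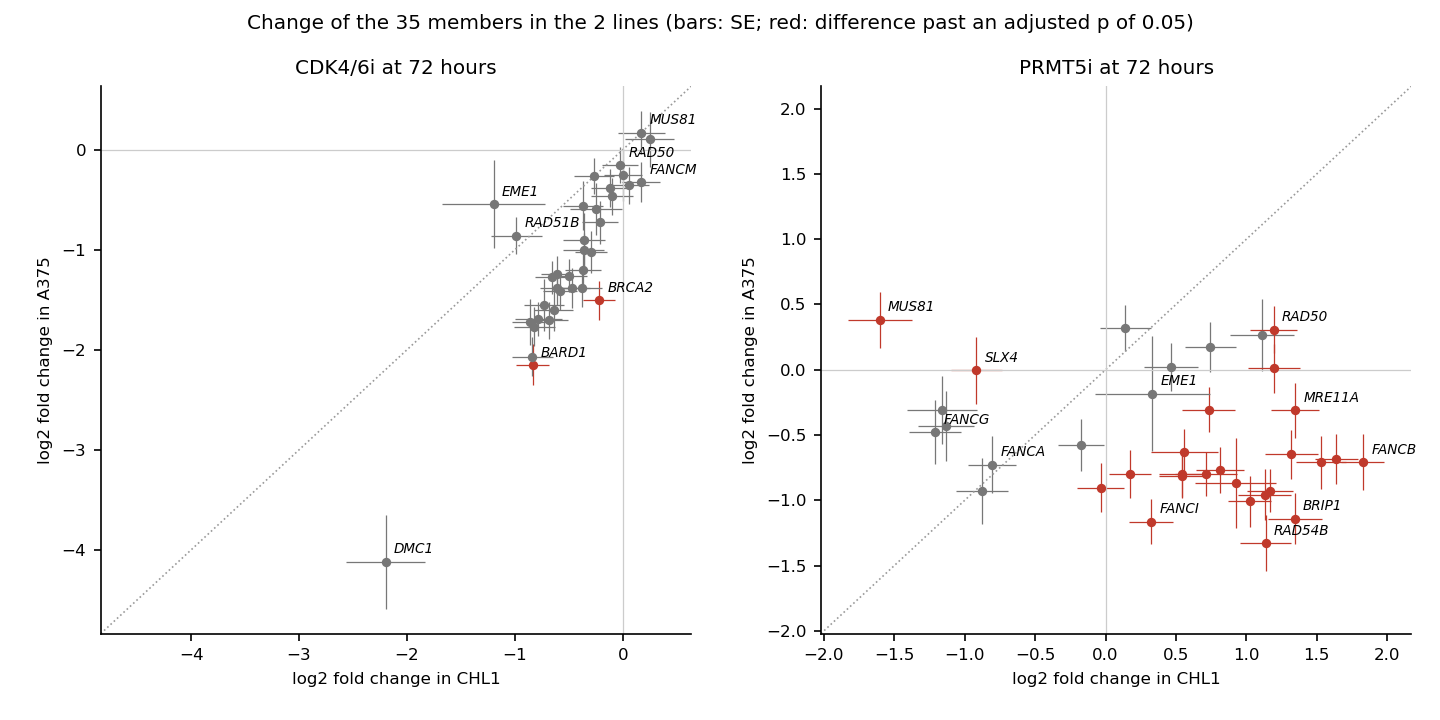
Log2 fold change of the members in CHL1 (x axis) and A375 (y axis) with CDK4/6i (left) and PRMT5i (right) at 72 hours, without the GC offset. Bars are SE, the dotted line marks equal change, and red marks a difference between the lines past an adjusted p of 0.05. The fold changes are those of the separate fit of each line. With CDK4/6i 32 of the 35 points lie below the dotted line and 2 are red, and with PRMT5i 24 are red, most of them to the right of 0 in CHL1 and below 0 in A375.

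The compounds were also compared with each other at 72 hours within each line. In A375, 10 members were higher with PRMT5i than with CDK4/6i and 0 lower in edgeR (2.37% and 3.09% of all genes): DMC1 (3.25 ± 0.50 SE), BARD1 (1.14), RAD51AP1 (1.12), FANCA (0.99), BLM (0.94), BRIP1 (0.93), EXO1 (0.89), BRCA2 (0.82), UBE2T (0.81) and RBBP8 (0.70). DMC1, at 1.65 and 1.27 CPM with PRMT5i, lay between the CDK4/6i libraries and the controls. DESeq2 called 12 and the fit with the GC offset 17 higher and 1 lower (10.2% and 8.79% of genes), but 1 passed in edgeR without either PRMT5i library or without CDK4/6i replicate 2, and 0 without CDK4/6i replicate 1. FANCI (0.22 ± 0.17), FANCD2 (0.30 ± 0.19) and POLQ (0.35 ± 0.16) did not pass. In CHL1, 25 were higher with PRMT5i and 5 lower (28.4% and 29.4% of all genes), and with the GC offset 20 and 2 (25.7% and 24.7% of genes), of which DMC1 (3.12; 2.32 with the offset), RAD51AP1 (2.14; 0.92) and BRIP1 (2.18; 1.09) were higher in both fits.

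The other genes of HR and the FA pathway numbered 40 with a row. Of these 15 were down-regulated in A375 with CDK4/6i at 72 hours and 18 at 6 days, with 7 up-regulated at 6 days. In CHL1 1 was down-regulated at 72 hours and 6 at 6 days, with 1 up-regulated at 6 days. Of all genes, 7.11% and 21.3% were down-regulated in A375 at these times and 2.72% and 7.8% in CHL1. Up-regulated at 6 days were 21.8% of all genes in A375 and 8.83% in CHL1. With PRMT5i 5 of the 40 were down-regulated in A375 (1.74% of all genes). MND1, the cofactor of DMC1, fell by 1.89 in A375 and 0.64 in CHL1 at 72 hours on the log2 scale, and the resection nuclease DNA2 by 1.79 and RMI1, the partner of BLM, by 1.65 in A375. In CHL1 with PRMT5i 14 of the 40 were up-regulated and 14 down-regulated (26.4% and 27.6% of all genes). Of 19 damage kinases and checkpoint genes, 9 were down-regulated in A375 with CDK4/6i at each time, and 1 and 2 in CHL1. In A375 at 6 days 1 of them was up-regulated. CLSPN, the adaptor between ATR and CHEK1, fell by 1.72 in A375 at 72 hours and by 0.92 and 1.35 in CHL1. Of the 7 mismatch repair genes 4 were down-regulated in A375 at 72 hours, among them MSH6 (-1.13), and 0 in CHL1, where 3 were at 6 days.

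For the repair pathways that do not use a sister chromatid, the counts with CDK4/6i at 72 hours come first. Of all genes, 7.11% were down-regulated and 6.22% up-regulated in A375 at that time, and 2.72% and 2.27% in CHL1. Of 13 end joining genes 2 were down-regulated and 1 up-regulated in A375 and 0 called in CHL1. Of 15 nucleotide excision repair genes 1 was down-regulated and 1 up-regulated in A375 and 0 called in CHL1. Of 14 base excision repair genes 2 were down-regulated in A375 and 1 in CHL1, NEIL3 in both lines (-2.26 and -1.30). At 6 days in A375, 4 end joining, 4 nucleotide excision and 1 base excision repair genes were down-regulated and 2, 6 and 3 up-regulated (21.3% and 21.8% of all genes). In CHL1 at 6 days 2, 0 and 1 were down-regulated and 1, 0 and 1 up-regulated (7.8% and 8.83%). With PRMT5i in CHL1, 7, 4 and 9 were down-regulated and 4, 8 and 4 up-regulated (27.6% and 26.4%). With PRMT5i in A375, DDB2, a damage sensor and p53 target, was up-regulated (1.24) as the one nucleotide excision repair gene called, and 0 end joining and 0 mismatch repair genes were called. Of the base excision repair genes 1 was up-regulated and 1 down-regulated there (0.874% and 1.74% of all genes). These lists were not tested against each other.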

How the data were processed

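Libraries were TruSeq poly-A, sequenced as paired ends. Per the methods and the submitters' processing notes, the authors aligned reads with HISAT2 (2.0.4) to GRCh37 and counted them per gene with HTSeq (0.11.2 in the notes). The table the authors deposited holds raw counts, whole numbers with a different total per library (16213475 to 37424081), although its label speaks of normalised reads. No sample column was left unused. CPM scale each count to the library's total in genes times its TMM factor, computed over all 18 libraries.

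The counts were fitted with edgeR (4.0.16, R 4.3.3) by the quasi-likelihood test with TMM scaling, in one fit for the 8 CHL1 libraries and one for the 10 A375 libraries, over all 20705 genes. Differences between lines were fitted over all 18 libraries. Adjusted p is Benjamini-Hochberg over all genes, up- and down-regulated mean an adjusted p under 0.05, and fold changes use a prior count of 0.125. The SE is the log2 fold change divided by the square root of F. DMC1 ratios carry exact 95% intervals on the reads.

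For the GC offset a loess curve (span 0.4) of log level on the GC content of the longest GENCODE transcript (v44, lifted to GRCh37) was removed per library, over those genes that averaged 1 CPM or more. Of the genes that averaged at least 1 CPM over all 18 libraries, 87.3% had a GC value. EME1 was below the minimum, leaving 34 members.

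The labels pair no replicates. DESeq2 (1.42.0), other scalings, filters, fits and left-out libraries were the alternatives. All members may be named. From each comparison list at most 3 genes per comparison are named, those with the largest called changes at a mean of at least 1 CPM. Further genes that this rule names are not reported here. Members and lists were chosen with earlier results of these data known.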

Additional observations from a re-analysis of the deposited data

Results flagged for a closer look

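Members whose response differed between the lines are given here as the log2 fold change in CHL1 minus that in A375, from the difference tested in edgeR over all 18 libraries (adjusted p under 0.05). With CDK4/6i at 72 hours these were BARD1 (1.26) and BRCA2 (1.23). With PRMT5i they were, in the BRCA complex, BRCA1 (1.32), BARD1 (2.00), BRIP1 (2.45) and BRCA2 (2.29). Among the filament mediators and strand exchange partners they were RAD51B (1.16), XRCC2 (1.31), RAD51AP1 (1.93), RAD54B (2.43) and DMC1 (1.76). In the Fanconi anemia pathway they were FANCB (2.5), FANCC (0.94), FANCL (2.06), FANCM (2.21), FANCD2 (0.83) and FANCI (1.45). In end resection and later steps they were MRE11A (1.62), RAD50 (0.86), NBN (1.15), RBBP8 (1.01), EXO1 (1.48), BLM (1.55), POLQ (2.06), MUS81 (-2.02) and SLX4 (-0.95). With the GC offset 17 of the PRMT5i differences were positive and 1 negative, and NBN and SLX4 changed sign (-0.17 and 0.16).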

How the results depend on the processing

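With 2 libraries a group, calls in CHL1 with CDK4/6i and in A375 with PRMT5i depended on each library, and some in A375 with CDK4/6i did. Among the counts and medians recomputed under alternatives, 148 stayed close to the reported value and 58 moved. With the GC offset, CHL1 CDK4/6i gave 17 calls at 72 hours and a median of -0.52 at 6 days, CHL1 PRMT5i 14 calls and a median of 0.12, A375 CDK4/6i medians of -1.07 at 72 hours and -0.55 at 6 days, and A375 PRMT5i 20 calls and a median of -0.57. When the fit held the compared groups alone, CHL1 CDK4/6i at 72 hours gave 19 calls and A375 PRMT5i 20.

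The replicate numbers were not taken as pairs, since the labels tie them to no shared batch and only 2 numbers exist. Same-numbered samples correlated at -0.234 to 0.269 in CHL1 and at 0.104 to 0.353 in A375 at 72 hours. With a replicate block, CHL1 CDK4/6i at 72 hours gave 7 calls (18 with the GC offset). The block with the GC offset gave a median of -0.52 in CHL1 at 6 days, 15 calls and 0.12 for CHL1 PRMT5i, and a median of -1.07 for A375 CDK4/6i at 72 hours. A375 PRMT5i, fitted on the 72-hour libraries, gave 22 calls without the block (1 up-regulated), 29 with it (3 up-regulated), and 28 (3 up-regulated) with a median of -0.57 for block and offset.

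Leaving out each library gave 0 to 1 calls for CHL1 CDK4/6i at 72 hours (medians -0.48 to -0.40), 5 to 14 at 6 days (-0.56 to -0.46), 23 to 28 for CHL1 PRMT5i, 19 to 20 for A375 CDK4/6i at 72 hours (-1.23 to -1.10), 23 to 29 at 6 days and 0 to 2 for A375 PRMT5i (-0.71 to -0.64).

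Alternatives for the differences were chosen after seeing the data. A375 CDK4/6i at 6 days against 72 hours gave 2 calls in DESeq2, 1 with the GC offset and 0 to 17 without 1 library. A375 PRMT5i against CDK4/6i gave 18 with the offset and 0 to 1 without 1 library. CDK4/6i in CHL1 against A375 gave 8 in DESeq2, 9 with the offset and 0 without any 1 library. The controls of the lines gave 20 with the offset.

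Signs turned with the GC offset for CHL1 PRMT5i in FANCA (0.085), FANCL (-0.32, adjusted p = 0.0409 in edgeR), NBN (-0.029), RBBP8 (-0.078), SLX4 (0.12), XRCC2 (-0.27) and XRCC3 (0.16), and with block and offset in the same 7 (0.086, -0.32, -0.032, -0.082, 0.12, -0.27 and 0.16). For the line difference under PRMT5i they turned in NBN (-0.17) and SLX4 (0.16). Against the 72-hour control, A375 CDK4/6i at 6 days turned in FANCB (0.046), FANCM (0.20), MUS81 (-0.16) and RAD50 (0.25). The cause was not tested.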
